A study of Mus musculus with 6 samples.

Results

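Among the barcodes of 6 mouse heart libraries, 361 of 34940 deposited barcodes carried endothelial genes together with Apln or Pgf. They were chosen on raw unique molecular identifiers (UMIs, each a tag on 1 captured RNA molecule). A barcode needed at least 1000 UMIs, at least 200 genes and at most 20% mitochondrial UMIs, which left 30014 barcodes. It also needed at least 3 UMIs of Cdh5, Egfl7 and Esam together, at most 1 UMI of Col1a2 and Csf1r together, no UMI of Npr3 and none of Prox1 and Mmrn1, which left an endothelial gate of 7389 barcodes. Members were the 361 gated barcodes with at least 2 UMIs of Apln and Pgf together, or 4.89% of the gate. Another 260 gated barcodes had 1 such UMI, and the 6768 with none are called the other endothelial-gate barcodes. Because measured values chose the members, every difference from the other gated barcodes is given as a description.

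Cells other than cardiomyocytes came from the ventricles of male mice aged 8 to 12 weeks, and the live cells of 4 mice were pooled into each 10x 3-prime library. The WT groups were C57BL/6JRj mice and the KO groups were B6.Cg-Trpm4tm1.2-PG mice, which lack the calcium-activated cation channel Trpm4 by their label. WT and KO hearts were taken 24 h after a sham operation, or 24 h or 72 h after tying off of the left anterior descending (LAD) branch of the coronary arteries, which infarcts the heart muscle it feeds. A sham at 72 h was not analysed here. Each of the 6 groups was 1 library, so no difference has a replicate check and no test was made. Intervals are 95% and cover counting error only. Values for all libraries are listed in a fixed order: WT sham, KO sham, WT ligation at 24 h, KO ligation at 24 h, WT ligation at 72 h and KO ligation at 72 h. These groups had 44, 63, 96, 81, 50 and 27 members.

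Apln encodes apelin, a secreted peptide that signals through the receptor Aplnr, and in growing vessels it marks endothelial tip cells, which lead a sprout. Pgf encodes placental growth factor, a relative of VEGF-A that binds Flt1, and endothelial cells make more of both when oxygen is short. In the adult heart most capillary endothelial cells are quiescent and express genes that take up fatty acids for the muscle, among them Fabp4, Cd36 and Lpl. Sprouting endothelium is known for basement membrane genes, Esm1, Angpt2 and glycolytic enzymes.

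Genes of the response to low oxygen were higher in members than in the other gated barcodes, and the sequences before the start sites of Apln and of 3 of them are shown because those genes recur in the results. Each run is 250 bases upstream of the RefSeq start on GRCm38.p6, read 5-prime to 3-prime on the gene's strand. Capitals mark ACGTG on either strand (CACGT on the printed strand), and copies in CACGTG overlap. ACGTG is a form of the core that hypoxia-inducible factors are known to bind. The other form, GCGTG, was neither marked nor counted. Apln lies at chrX:48025146-48034853, minus strand, and its run covers chrX:48034854-48035103. Adm, encoding the vessel peptide adrenomedullin, has its run at chr7:110627407-110627656 on the plus strand. Egln3, an oxygen-sensing hydroxylase, has its run at chr12:54203875-54204124 on the minus strand, and Ldha, lactate dehydrogenase A, at chr7:46845554-46845803 on the plus strand.
Apln: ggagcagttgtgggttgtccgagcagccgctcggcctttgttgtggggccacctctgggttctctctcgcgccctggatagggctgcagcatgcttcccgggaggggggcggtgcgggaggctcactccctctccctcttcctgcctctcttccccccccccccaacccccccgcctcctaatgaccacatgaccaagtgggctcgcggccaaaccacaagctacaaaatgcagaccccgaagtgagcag
Adm: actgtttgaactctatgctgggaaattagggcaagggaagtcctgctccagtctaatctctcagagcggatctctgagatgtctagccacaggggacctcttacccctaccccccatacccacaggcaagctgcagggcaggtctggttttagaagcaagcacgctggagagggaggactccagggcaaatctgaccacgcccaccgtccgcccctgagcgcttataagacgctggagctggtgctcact
Egln3: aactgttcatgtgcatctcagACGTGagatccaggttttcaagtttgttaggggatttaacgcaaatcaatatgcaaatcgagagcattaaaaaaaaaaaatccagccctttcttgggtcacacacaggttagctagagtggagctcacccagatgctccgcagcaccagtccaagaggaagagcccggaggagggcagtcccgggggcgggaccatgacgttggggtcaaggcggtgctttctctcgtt
Ldha: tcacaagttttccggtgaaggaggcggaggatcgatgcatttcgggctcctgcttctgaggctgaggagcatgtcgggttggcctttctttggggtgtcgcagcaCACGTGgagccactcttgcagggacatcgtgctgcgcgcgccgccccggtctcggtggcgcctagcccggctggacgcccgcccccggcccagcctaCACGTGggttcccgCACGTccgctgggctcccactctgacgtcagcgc
The Apln and Adm windows held no copy of ACGTG, though the Adm window holds GCGTG on the other strand. The Egln3 window held 1 copy of ACGTG and the printed Ldha window 5, counting both strands. A second RefSeq start of Ldha, with its window at chr7:46846832-46847081, had none. Pgf lies at chr12:85166635-85177790, minus strand. Both of its windows overlap annotated exons and are not printed, and neither held a copy. Of all 32851 RefSeq windows of this length, 16.6% held at least 1, as did 18.5% of the 27025 genes in any window. Of 22 hypoxia and glycolysis genes considered, 21 matched a window and 14 of these (66.7%) held it. Of 14 capillary and lipid genes 8 matched a window, and 0 of these held it. The hypoxia list names genes known for that response, so its share does not describe the members. The tip-cell list had it in 1 of 19 matched genes (5.26%), and the 6 given markers in 0. A match describes letters and not a bound site.

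The 6 libraries held 3625 to 7286 deposited barcodes, of which 3201 to 6734 passed, and the gate held 2286, 3190, 655, 720, 245 and 293 barcodes. Members were deeper than the other gated barcodes, with medians of 6528.5, 6036, 4886.5, 4661, 10950.5 and 3277 UMIs against 3409, 3473.5, 4063, 2945, 2848 and 1893.5. Their median mitochondrial share was lower in every library, 2.004% to 7.04% against 2.74% to 10.5%. Any 2 libraries shared 3 to 14 barcode sequences, and no member's barcode recurred. Trpm4 was too sparse to check the genotype labels here. Without the barcodes set apart below, members held 2, 1, 1, 1, 2 and 0 Trpm4 UMIs, and the other gated barcodes 11.2, 6.96, 6.68, 5.45, 3.73 and 3.18 CPM, where CPM is a gene's UMIs divided by all UMIs of the population and scaled to 1000000. Which exons the KO allele lacks is not given in the sources used here, so 3-prime tags are no check.

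The endothelial label did not hold for every member. In 54 of the 361 (14.96%), UMIs of 14 pericyte and smooth muscle genes outnumbered those of 9 endothelial genes that the rule does not use. Pericytes and smooth muscle cells, together mural cells, wrap vessels from outside. These mural-marker barcodes had a median of 231.5 mural and 0 endothelial UMIs, while the other 307 had a median of 0 mural and 25 endothelial UMIs. The separation was clear, with 3 members within 2-fold of the cut. Myh11, the smooth muscle myosin heavy chain, stood at 4555 CPM in the 54 and at no more than 2.01 CPM in the 307 of any library. Rgs5, a pericyte marker, stood at 4896 CPM in the 54 and at 0 to 13.2 CPM in the 307.

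No Apln UMI was found in the 54 mural-marker barcodes, which allows up to 7.99 CPM, and Pgf alone brought them in, at 405 CPM. They made up 25, 38.1, 7.29, 9.88, 6 and 3.70% of members, from 24 of 63 in KO sham to 1 of 27 in KO ligation at 72 h, so they weighed most on the sham libraries. Among the other gated barcodes the mural share was 1.51% to 4.17%. Their exclusion was chosen after the data were seen. Gene values below are for the 307 and for 6623 other gated barcodes held to the same cut, and results that differ for all 361 say so.

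**Figure D1:**
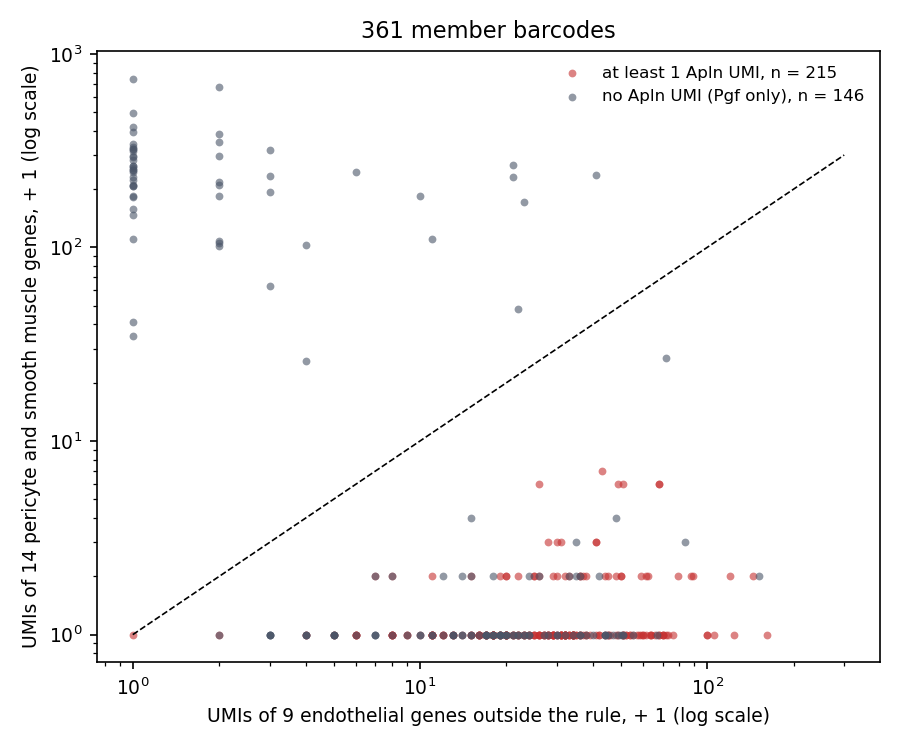
Each point is 1 of the 361 members, with UMIs of 9 endothelial genes plus 1 on the x axis and UMIs of 14 mural genes plus 1 on the y axis, both on log scales; red points have at least 1 Apln UMI and grey points only Pgf. The 54 barcodes above the dashed line of equality are all grey.

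Members were a larger part of the endothelial gate after ligation than after sham. Their share was 1.92% (95% exact binomial interval 1.40 to 2.58) in WT sham and 1.97% (1.52 to 2.52) in KO sham. At 24 h after ligation it was 14.7% (12.0 to 17.6) in WT and 11.2% (9.04 to 13.8) in KO, and at 72 h 20.4% (15.5 to 26) and 9.22% (6.16 to 13.1). The intervals of both sham libraries lie below those of all 4 ligation libraries. As a ratio to sham, the 24 h share was 7.61 (95% interval 5.39 to 10.8) in WT and 5.70 (95% interval 4.14 to 7.84) in KO, or 9.61 and 8.56 without the mural-marker barcodes. The gate itself held fewer barcodes after ligation, so the 96 and 81 members at 24 h compare with 44 and 63 in sham.

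KO and WT shares were close in sham, with a ratio of 1.03 (95% interval 0.701 to 1.502). The KO share was 0.768 times the WT share at 24 h after ligation (0.582 to 1.01) and 0.452 times at 72 h (0.292 to 0.698). Depth moved with the 72 h difference, since gated barcodes had a median of 3409 UMIs in WT and 1943 in KO. With every gated barcode thinned to 1000 UMIs, at least 1 Apln or Pgf UMI was found in 1.57, 1.76, 13.0, 10, 13.1 and 9.90%, a KO to WT ratio of 0.758 (0.472 to 1.22) at 72 h and a 72 h to 24 h ratio of 1.01 (0.689 to 1.47) in WT. These thinned ratios use a lower cut than the member shares, which need at least 2 such UMIs. At least 2 were found after thinning in 0.306, 0.313, 8.09, 5.69, 5.71 and 2.73%, on 7, 10, 53, 41, 14 and 8 barcodes. Thinning left the sham and ligation libraries apart. In neutrophil-marker barcodes, which should lack both genes, 0.117% to 0.238% had 2 or more such UMIs at median depths of 2067 to 3405.5 UMIs. In the gate the median depths were 3451, 3537, 4254, 3103.5, 3409 and 1943 UMIs.

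**Figure D2:**
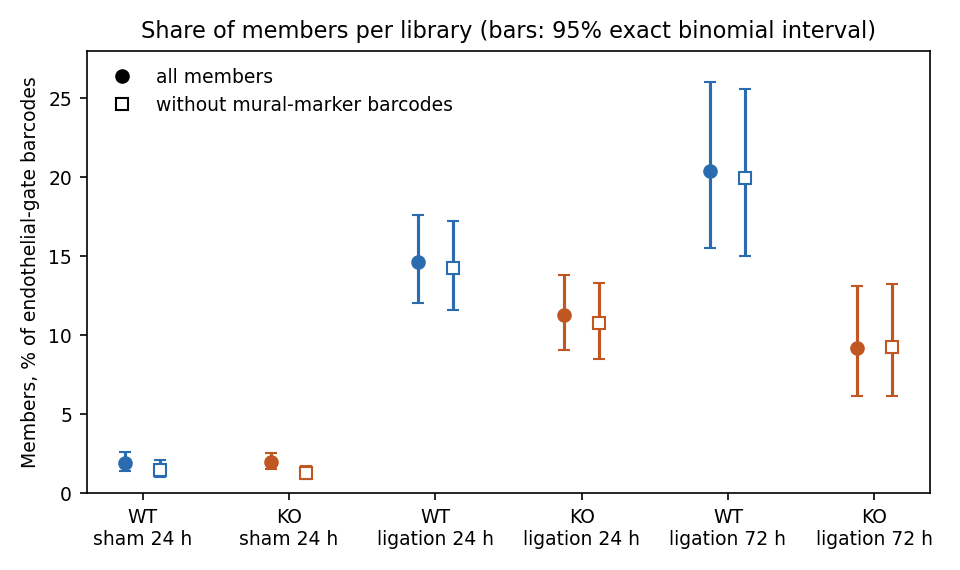
Members as a percentage of endothelial-gate barcodes in each of the 6 libraries (1 point a library; blue WT, orange KO), with exact binomial 95% intervals, for all members (filled circles) and without mural-marker barcodes (open squares). Both sham libraries sit near 2% or below, and the 4 ligation libraries at 9.22% or above for all members.

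Across the whole gate, Apln stood at 12.4, 13.7, 125, 84.9, 231 and 88.9 CPM and Pgf at 14.3, 15.1, 249, 165, 251 and 115 CPM, with both sham libraries below every ligation library for each gene. Outside the gate Apln was at 0.320 to 4.21 CPM, and 88.3% of its UMIs in passing barcodes lay inside the gate. Pgf was less restricted, with 41.3% of its UMIs inside. In the 307 members without the mural-marker barcodes, 76 had Apln without Pgf, 92 had Pgf without Apln, and 139 had both. Apln alone was seen in 15, 19, 7, 13, 17 and 5 members, Pgf alone in 9, 8, 37, 24, 6 and 8 and both in 9, 12, 45, 36, 24 and 13. At the threshold, the 260 barcodes with 1 UMI averaged 143 CPM of Mest and 18053.5 of Fabp4 over libraries, the 96 with 2 UMIs 145 and 15783, and the 265 with 3 or more 287 and 9700.0. Of these 3 sets, 16.5%, 29.2% and 9.81% were mural-marker barcodes.

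Against the other gated barcodes, members without the mural-marker barcodes were high in genes such as Adm, Angpt2, Kit and Tnc and low in capillary genes such as Fabp4, Cd36 and Lpl. Of 11523 genes with at least 50 UMIs, 624 (5.42%) were at least 2-fold higher in mean CPM over the 6 libraries and 1041 (9.03%) at least 2-fold lower. With all 361 members, 796 of 11798 (6.75%) were higher and 969 (8.21%) lower, and the highest were led by mural genes such as Myh11, Tagln and Lmod1.

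The 4 marker genes given for these cells beside Apln and Pgf had higher CPM of summed UMIs in members in 6 of 6 libraries. They were picked from these same cells, so their direction is no independent evidence. Mest, an imprinted gene of the mesoderm, stood at 165, 234, 195, 144, 377 and 409 CPM in members and at 33.1, 38.0, 47.6, 48.6, 103 and 139.7 CPM in the other gated barcodes. The 2 sets of libraries did not overlap, and both 72 h libraries were the highest of their set. Mcam, an adhesion molecule of vessel cells, stood at 135, 184, 287, 375, 400.1 and 389 CPM against 69.5, 73.3, 147, 110.1, 169 and 117 CPM. Members of the sham libraries were the lowest, and WT sham members overlapped the other barcodes of ligated hearts. Edn1, the vasoconstrictor endothelin-1, stood at 35.1, 237, 295, 365, 56.2 and 85.8 CPM against 31.6, 89.3, 96.0, 111, 33.6 and 38.1 CPM. The difference was near 0 in WT sham, where 7 UMIs were counted, and in KO ligation at 72 h all 13 UMIs came from 1 barcode. Col4a2, a chain of the type IV collagen of basement membranes, stood at 1214, 922, 1066, 1005, 872 and 1240.4 CPM against 654, 717, 888, 749, 868 and 632 CPM, and in WT ligation at 72 h the values were nearly equal. With all 361 members Col4a2 was higher in 4 of 6 libraries, and Edn1 in 5. With each barcode thinned to 1000 UMIs, the share with a UMI was higher in members in 6 of 6 libraries for Mest and Mcam, in 5 for Col4a2, and in 4 for Edn1. The thinned shares were nearly equal for Mest in KO ligation at 24 h, 4.11% against 3.95%, and for Mcam in KO sham, 7.69% against 7.29%. Col4a2 was then found in 47.9% of KO members at 24 h after ligation against 52.5% of the others. Edn1 was found in 0 of 47 and 0 of 26 members at 72 h, with upper limits of 7.55% and 13.2%, against 0.599% and 5.65% of the others. The plot of marker genes by library shows the CPM of all UMIs, without thinning.

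**Figure D3:**
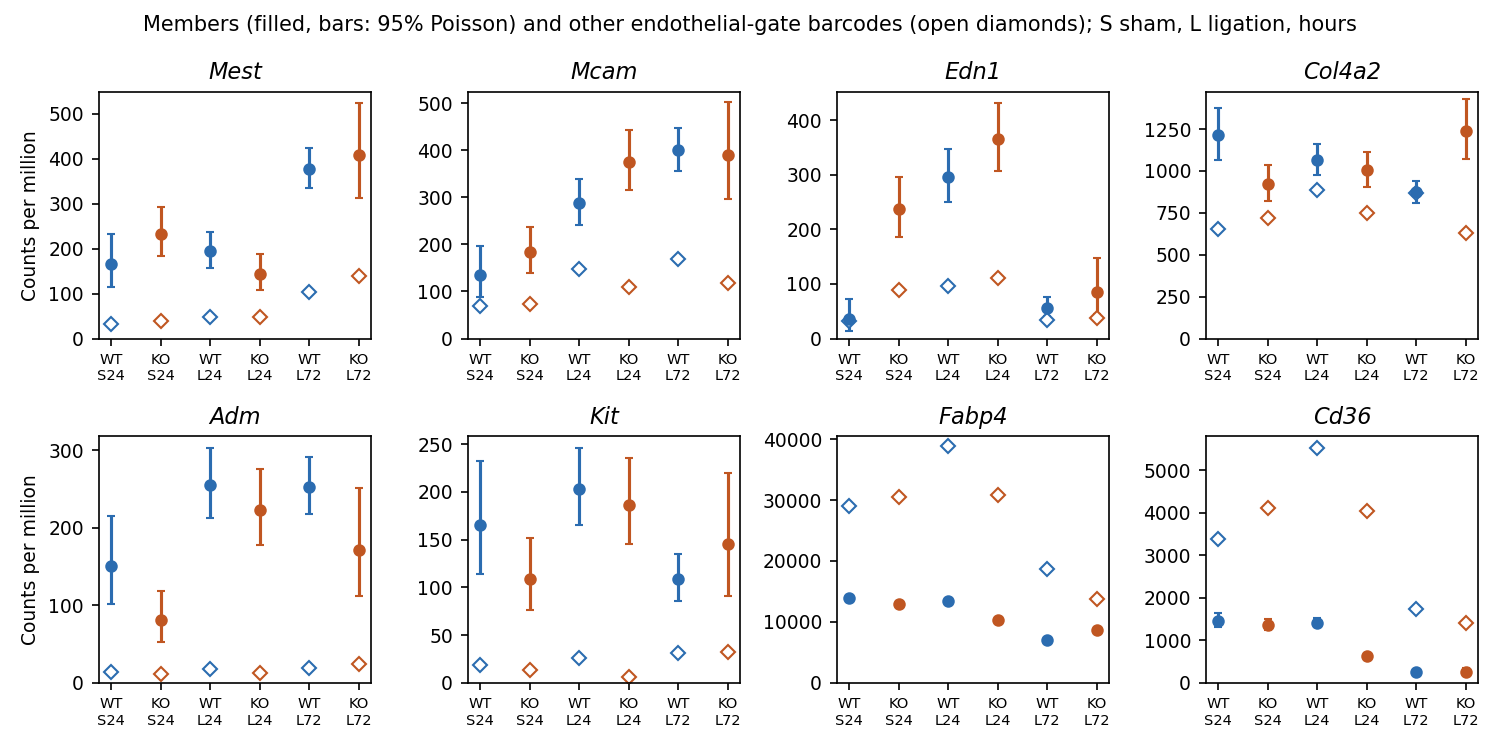
CPM (y axes, from 0) of 8 genes in members without mural-marker barcodes (filled, with 95% Poisson intervals) and in other endothelial-gate barcodes (open diamonds) in each library (x axes; S sham, L ligation, hours; blue WT, orange KO). Adm and Kit are higher in members and Fabp4 and Cd36 lower in all 6 libraries.

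By the rule for named genes, the genes with the highest ratios included Tnc, Fosl1, Prnd, Adm, Ch25h, Sh2d5, AA467197, Inhbb, Tubb6, Plau, Adamts4, Kit, Errfi1 and Angpt2. Each was higher in members in 6 of 6 libraries, which the rule required, by 6.83-fold for Angpt2 to 21.3-fold for Tnc. Several act on the matrix around a vessel. Plau, the plasminogen activator urokinase, averaged 59.8 CPM over libraries against 7.50 CPM, and Adamts4, a protease of proteoglycans, 91.6 against 12.4 CPM. Tnc, the matrix protein tenascin-C, stood at 5.01, 9.35, 104, 76.1, 73.6 and 85.8 CPM against 0.320 to 9.53 CPM, with 1 and 3 UMIs in the sham libraries.

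Among secreted signals, Adm, adrenomedullin, stood at 150.4, 81.0, 255, 223, 253 and 172 CPM against 14, 11.4, 18.4, 12.9, 18.7 and 23.8 CPM, 11.4-fold in the means, and the members' lowest library lay above the others' highest. Angpt2, angiopoietin-2, which antagonises Tek at the vessel wall, stood at 30.1, 118, 78.3, 218, 134 and 52.8 CPM against 8.40, 12.5, 19.6, 23.3, 11.2 and 17.5 CPM. Inhbb, a subunit of activin and inhibin, averaged 89.95 against 10.3 CPM. The receptor tyrosine kinase Kit stood at 165, 109, 203, 186, 108 and 145 CPM against 19.0, 13.6, 26.3, 6.44, 31.1 and 31.8 CPM, with no overlap between the 2 sets. Prnd, the prion-like protein doppel, stood at 95.3, 40.5, 56.2, 121, 318 and 673 CPM against 2.92, 1.20, 0.835, 3.97, 29.9 and 50.8 CPM and was highest in the 72 h libraries on both sides. AA467197, a small mitochondrial protein gene, was the most abundant of those named, at 241, 417, 1273, 1192, 1053 and 1214 CPM against 20.6, 12.9, 74.7, 114, 157 and 214 CPM, and was lowest in sham on both sides.

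The 10 lowest were Hba-a1, Alpl, Scgb3a1, Aqp7, Timp4, Rbp7, Slc26a10, Hey1, Xdh and Cdkn1c. Hba-a1 encodes hemoglobin alpha, a red cell gene, and reads may be split with its near-identical copy Hba-a2. In WT sham, 46 of 2146 other gated barcodes held 5 or more UMIs of red cell and platelet genes. Aqp7, a glycerol channel of capillaries, stood at 45.1, 53.0, 44.2, 15.7, 9.37 and 0 CPM in members against 193, 205, 239.7, 174, 142 and 73.0 CPM. Timp4, an inhibitor of metalloproteinases, averaged 106 against 645 CPM, Rbp7, a retinol-binding protein of heart capillaries, 129.6 against 746 CPM, and Hey1, a Notch target of arterial endothelium, 12.2 against 65.3 CPM. All 10 were lower in members in 6 of 6 libraries, which the rule required.

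The capillary and lipid list moved as a block. All 14 measured genes had a ratio below 1 and 9 were at least 2-fold lower, with a median log2 ratio of -1.36 beside -0.02 over all genes tested. Fabp4, the fatty acid binding protein, stood at 13856, 12994, 13418, 10325, 7021 and 8643 CPM in members against 28986, 30515, 38875.5, 30893, 18642 and 13781 CPM, lower in members in every library, with 0.410 as the ratio of the 6-library means. Cd36, the fatty acid transporter, stood at 1464, 1355, 1415, 619, 258 and 244 CPM against 3389, 4114, 5532, 4050.3, 1735 and 1400.5 CPM, and Lpl, lipoprotein lipase, at 216, 193, 205, 131, 20.1 and 19.8 against 619.7, 725, 1028, 793, 190.5 and 187 CPM. All 3 were lowest at 72 h after ligation in both populations. Of 13 measured arterial genes, 7 were at least 2-fold lower and none 2-fold higher (median -1.78). Stmn2, a microtubule regulator of arterial endothelium, stood at 25.1, 21.8, 84.3, 73.5, 32.1 and 19.8 CPM against 234, 189, 116, 163, 210.4 and 178 CPM and was lower in every library. Klf2 and Klf4, transcription factors that blood flow induces, were lower in 6 of 6 libraries, at 0.361 and 0.297 of the other barcodes' mean.

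Genes of low oxygen and sugar use were high. Of 22 measured hypoxia and glycolysis genes 10 were at least 2-fold higher and none was 2-fold lower, with a median log2 ratio of 0.92. Pgk1, phosphoglycerate kinase, stood at 125, 209, 474, 512, 608 and 521 CPM against 71.8, 73.3, 104, 153, 233 and 245 CPM, and Pkm, pyruvate kinase, at 276, 383, 741, 1013, 1302 and 1366 against 185, 190.4, 290.2, 398, 409.6 and 478 CPM. Both were higher in members in every library. Ldha stood at 341, 424, 771, 892, 1099.9 and 845 CPM against 295, 336, 424, 537, 510.4 and 516 CPM, 1.67-fold in the means and higher in members in 6 of 6 libraries. Egln3 was higher in 6 of 6 libraries with 1, 1, 23, 10, 45 and 16 UMIs, 1 in each sham library. Slc2a1, the glucose transporter of endothelium, stood at 5.01, 6.23, 219, 210.0, 46.8 and 66.0 CPM against 7.55, 8.16, 18.0, 27.3, 14.9 and 14.3 CPM, with 1 and 2 UMIs in sham members, and was higher in members in all 4 ligation libraries. Of 14 growth and biosynthesis genes 7 were at least 2-fold higher (median 1.14), including Odc1, which starts polyamine synthesis, at 259 against 69.5 CPM, Srm, which follows it, and the amino acid transporter Slc7a5. Of 15 actin and adhesion genes 5 were (median 0.90), including the actin bundler Fscn1, at 502 against 176 CPM, and Actg1. None of either list was 2-fold lower.

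The tip-cell list split. Of 22 measured genes 9 were at least 2-fold higher (Esm1, Nid2, Angpt2, Adm, Inhbb, Mcam, Igfbp3, Trp53i11 and Lxn), 2 were lower (Kdr and Ramp3), and the median was 0.50. Nid2, a basement membrane linker, stood at 110.3, 65.4, 62.2, 57.7, 128 and 178 CPM against 24.7, 26.1, 24.2, 21.8, 46.1 and 44.5 CPM. Trp53i11 averaged 381 against 117 CPM and was higher in 6 of 6 libraries. Cxcr4 and Dll4, classic tip-cell genes, averaged 37.3 against 32.2 and 126 against 93.2 CPM and were not on 1 side in all libraries. Plvap, of fenestrated capillaries, was higher in 2 libraries and lower in 4. Of 11 VEGF and angiopoietin genes, Vegfa and Angpt2 were at least 2-fold higher and Vegfc, Flt1, Kdr and Tek at least 2-fold lower (median -0.79). Kdr, the main VEGF receptor, stood at 506, 492, 377, 346, 270.3 and 191 CPM against 830.4, 865, 797, 792, 742 and 632 CPM. Flt1, the receptor of placental growth factor, stood at 326, 523, 439.6, 349, 230.2 and 323 against 1005, 944, 956, 862, 561 and 465 CPM, and in every library members lay below. Aplnr, the apelin receptor, averaged 115 against 149 CPM and was lower in members in 5 of 6 libraries.

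General endothelial genes differed less. Of 9 measured outside the rule, Cldn5, a tight junction protein, was at least 2-fold higher, at 1138, 1028, 1562, 1391, 487 and 818 CPM against 379.8, 529, 871, 637, 421 and 343 CPM, and Kdr and Tek were 2-fold lower. Pecam1, an endothelial adhesion molecule, averaged 759.7 against 727 CPM. Of 18 basement membrane genes 3 were at least 2-fold higher (Lamc1, Nid2 and the collagen chaperone Serpinh1) and Lamb2 was lower (median 0.44). Of 20 proliferation genes 3 were at least 2-fold higher and none lower (median 0.61). Their sum was 371, 1115, 365, 349, 2660 and 1913 CPM in members against 421, 476, 443, 434, 2038 and 1712 CPM. Without each library's highest member it was 356, 387, 352, 348, 1814 and 1169 CPM, below the other gated barcodes in every library. The other gated barcodes kept their highest barcode in this comparison. Thinned to 1000 UMIs, 3.03, 10.3, 2.25, 9.59, 31.9 and 30.8% of members had 2 or more UMIs of the list. In the other gated barcodes it was 7.04, 7.99, 6.34, 7.20, 14.97 and 23.9%. By this measure members were higher in KO sham, KO ligation at 24 h and both 72 h libraries. They were lower in WT sham and WT ligation at 24 h. Among markers of other cells, fibroblast genes summed to 36.1 to 246 CPM per library, against 1919 to 9969.6 CPM outside the gate. Of 3 measured pericyte genes, the potassium channel genes Kcnj8 and Abcc9 were at least 2-fold higher, each on 1 to 10 UMIs per library, and Rgs5 was lower. A mesenchymal list that endothelium also expresses in part summed to 8666 to 16805 CPM in members and 5109 to 10038 CPM in the other gated barcodes, higher in members in every library. Of its 16 measured genes 3 were at least 2-fold higher, among them Vim, the filament protein vimentin, and none was 2-fold lower (median 0.27). Neutrophil and macrophage markers reached high sums in some ligation libraries and are given with the conditions.

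**Figure D4:**
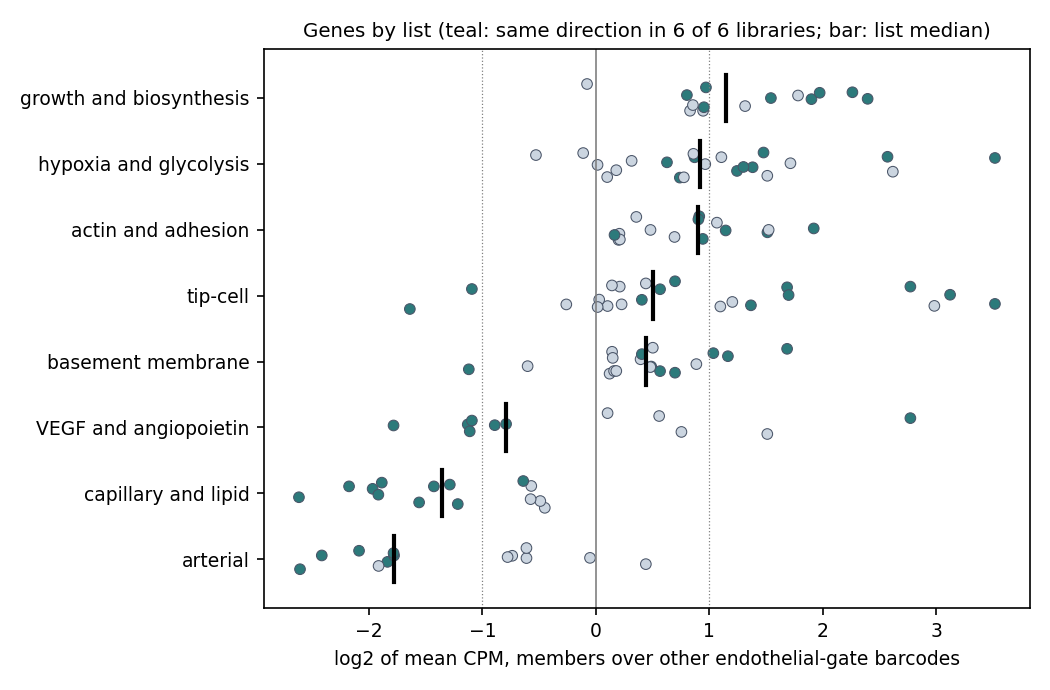
The log2 ratio of mean CPM in members without mural-marker barcodes over other endothelial-gate barcodes (x axis; dotted lines at 2-fold) for each measured gene of 8 lists (rows); teal points have the same direction in 6 of 6 libraries and black bars are list medians. The capillary and lipid genes (-1.36) and arterial genes (-1.78) lie to the left, and the growth (1.14), hypoxia (0.92) and actin (0.90) genes mostly to the right.

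Members with Apln and members with Pgf alone differed in several genes. They could be set side by side at 24 h after ligation, where WT had 52 and 37 and KO 49 and 24 of them once mural-marker barcodes were left out, and values are means of these 2 libraries with the same direction in both. Members with Apln were higher in Angpt2, at 189 against 50.3 CPM, Prnd, at 123 against 8.13 CPM, Tnc, at 117 against 42.2 CPM, Edn1, at 384 against 197 CPM, and Mest, at 199 against 110.0 CPM. These include 2 of the given markers. Of 2927 genes with at least 50 UMIs, 91 (3.11%) were at least 2-fold higher with Apln and 77 (2.63%) at least 2-fold lower, with the same direction in both libraries. Of 16 immediate early genes, 6 were at least 2-fold lower with Apln and none higher (median log2 -0.82, 0.02 over all genes), and of 19 hypoxia and glycolysis genes 2 were (-0.40). Fos, Ldha, Pkm and Adm were not on the same side in both libraries. Klf4 stood at 268 CPM with Pgf alone against 46.8 with Apln, the stress gene Ier3 at 1388 against 392, Slc2a1 at 343 against 156 and Ndrg1 at 253 against 129 CPM. The gaps of Klf4 and Ier3 were wider in WT. Klf4 was there at 450 against 57.4 CPM and Ier3 at 2232 against 494 CPM. In KO they were at 85.9 against 36.2 and 544 against 290 CPM. A single member gave a large part of the WT Klf4 UMIs, as given below. Of the arterial list, Stmn2 was at 201 CPM against 19.3 with Apln, Efnb2, an arterial ephrin, at 151 against 37.5 CPM, and Sema3g, a semaphorin, had 36 UMIs against 3. Of 6 arterial genes with at least 50 UMIs 2 were at least 2-fold lower with Apln and none as much higher, while Mecom was higher with Apln in both libraries. Median depths were 4886.5 UMIs with Apln and 4270 with Pgf alone in WT, and 4946 and 3715 in KO. Which of both genes was caught chose these sets, and the 307 members had a median of 2 Apln and 3 Pgf UMIs.

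At 24 h after ligation, members of both genotypes were higher than sham members in genes of low oxygen and glycolysis and in immediate early genes. Of 2380 genes with at least 50 UMIs over the pair in WT, 318 (13.4%) were at least 2-fold higher and 109 (4.58%) lower. In KO it was 121 (5.37%) higher and 64 (2.84%) lower of 2252. With all members, 12.1% were higher and 6.4% lower in WT, and 189 (6.26%) and 183 (6.06%) of 3020 in KO, where 24 of 63 sham members were mural-marker barcodes. Of the hypoxia and glycolysis genes, 12 of 17 measured were at least 2-fold higher in WT (median log2 1.26, 0.07 over all genes) and 10 of 14 in KO (1.40, against 0.00). Slc2a1 had 1 and 2 UMIs in sham members and 109 and 80 in members at 24 h, or 219 and 210.0 CPM. Pgk1 was at 125 and 209 CPM in sham and 474 and 512 CPM at 24 h, log2 ratios of 1.92 (1.32 to 2.58) in WT and 1.29 (0.89 to 1.72) in KO. Among the other gated barcodes, Pgk1 had log2 ratios of 0.54 and 1.06, and the same list 1 of 20 and 5 of 22 genes at least 2-fold higher.

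Of the immediate early genes, 13 of 16 were at least 2-fold higher in WT (median 1.79) and 5 of 13 in KO (0.90). Fos, Junb, Ier3 and Dusp1 were higher in both genotypes. In sham and at 24 h after ligation the list summed to 2633 and 9656 CPM in WT members and to 2810 and 4708 CPM in KO members. It also rose in the other gated barcodes, from 3659 to 5629 CPM in WT and from 3755 to 4774 CPM in KO. The named WT gene Hspa1a, a heat shock chaperone, stood at 10.03, 46.7, 1471, 23.6, 25.4 and 13.2 CPM, and 50.1% of its 733 UMIs in WT ligation came from 1 of 21 barcodes. Its UMIs may be split with the near-identical Hspa1b. Ccn1, a secreted matrix-associated signal, had 2, 85, 366, 250, 183 and 37 UMIs. WT sham was the only low library, at 10.03 CPM, and the others ranged from 244 to 735 CPM, with 81.1% of the KO 72 h UMIs from 1 barcode. Plaur, the urokinase receptor, stood at 45.1, 209, 807, 533, 225 and 277 CPM and was highest in both 24 h ligation libraries. The lower named genes with support from many barcodes in WT were Sparcl1, a matrix glycoprotein, at 261 CPM against 1469 CPM in sham, a log2 ratio of -2.49 (-2.80 to -2.19), and the monooxygenase gene Fmo1, at 50.2 against 346 CPM. In KO they were Heg1, Aopep, Rnf144a and Cetn3, at 0.277 of sham for Cetn3 down to 0.215 for Heg1.

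Several named genes of the 24 h comparison rested on 1 barcode. In WT ligation 98.9% of 361 Arg1 UMIs and 65.8% of 406 Ccl2 UMIs came from 1 member. In KO ligation 98.2% of 626 Cd74 UMIs and 100% of 203 H2-Ab1 UMIs did, genes of antigen presentation. Igfbp5, the lowest named gene in WT, drew 90.8% of its 87 sham UMIs from 1 member. Neutrophil markers moved with the condition. The 7 genes summed to 45.1, 174, 3198, 10181, 73.6 and 329.9 CPM in members and to 1736, 937, 2752, 10464, 476 and 2677 CPM in the other gated barcodes. A single member gave 67.3% of these UMIs in WT ligation at 24 h, 71.4% in KO sham and 92.7% in WT ligation at 72 h, and without it the WT sum at 24 h was 1058 CPM. In KO ligation at 24 h, 9 of 73 members had more UMIs of these genes than of the endothelial genes. All 7 genes were detected in members of both 24 h ligation libraries, and their part in the condition differences was not tested.

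At 72 h, WT members were higher than at 24 h in proliferation genes and lower in immediate early genes. Of 3814 genes tested 320 (8.39%) were at least 2-fold higher and 490 (12.8%) lower. In KO, with 26 members at 72 h, 60 (3.49%) were higher and 146 (8.49%) lower of 1720. With all members the shares were 7.8% and 12.5% in WT and 3.11% and 8.29% in KO. WT ligation at 24 h enters this comparison and the one with sham, as does KO ligation at 24 h. Of 15 measured proliferation genes, 14 were at least 2-fold higher in WT (median log2 3.92). Stmn1, which destabilises microtubules, stood at 45.1, 96.6, 26.1, 15.7, 448 and 329.9 CPM, with 8, 8, 6, 5, 29 and 12 members holding a UMI. Top2a had 0, 24, 0, 0, 75 and 2 UMIs and Mki67 0, 13, 0, 0, 59 and 11, and both 72 h libraries and KO sham were the only ones with more than 0. In KO sham all UMIs of both came from 1 member, and in WT ligation at 72 h 1 member gave 60% of Top2a. The other gated barcodes moved likewise, with 12 of 14 proliferation genes at least 2-fold higher at 72 h in WT.

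Of 20 tip-cell genes 5 were at least 2-fold higher in WT at 72 h than at 24 h (Esm1, Nid2, Plvap, Igfbp3 and Lxn) and 3 lower (Dll4, Pdgfb and Inhbb). The list's summed level, 5529 against 5952 CPM, includes Apln and Pgf, which chose the members, so it does not describe the other genes of the list. Of 15 basement membrane genes 3 were higher (Nid2, Col15a1 and Col18a1) and P4ha1 was lower. Esm1, a proteoglycan of sprouting endothelium, had 4, 0, 1, 9, 89 and 3 UMIs in members, in 3, 0, 1, 3, 13 and 2 barcodes, and WT ligation at 72 h was the high library, at 119 CPM (95.6 to 147). Plvap stood at 40.1, 109, 6.02, 2.62, 288 and 145 CPM in members and 15.5, 17.7, 51.8, 42.1, 296 and 284 CPM in the other gated barcodes, so at 72 h members did not exceed the rest. Col18a1, the basement membrane collagen that contains endostatin, stood at 15.04, 65.4, 36.1, 105, 294 and 257 CPM against 31.9, 25.5, 29.6, 22.3, 157 and 152 CPM and was highest at 72 h in both populations. Igfbp3, which binds insulin-like growth factors, stood at 55.2, 109, 104, 205, 405 and 785 CPM, with 94.3% of its KO sham UMIs from 1 member. Col15a1 was at 191 and 290.3 CPM at 72 h against 22.1 and 28.9 at 24 h CPM. Col15a1, Col18a1 and Igfbp3 were at least 2-fold higher at 72 h in both genotypes. In KO the named higher genes included Stmn1, Col15a1, Selenoh and Lgals1, which encodes galectin-1, at 1260.2 CPM against 210.0 CPM, a log2 ratio of 2.59 (2.20 to 2.98). Macrophage markers outnumbered the endothelial genes' UMIs in 13 of 26 KO members at 72 h and in 2 of 73 at 24 h. They summed to 1201 and 493 CPM, and their part in this comparison was not tested. In WT the named higher genes were Esm1, Fam167b and the cell-cycle genes Hist1h1b, Ube2c and Hist1h2ap, and 1 member gave 94.3%, 69.4% and 87.4% of the UMIs of these last 3. Fam167b had 1, 15, 2, 6, 171 and 34 UMIs. The lowest in KO included Gdf15, a stress cytokine, with 2, 5, 181, 113, 61 and 0 UMIs, so KO members at 72 h were at least 14.98-fold lower than at 24 h when 0 is read as 3 UMIs.

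Of 16 immediate early genes, 15 were at least 2-fold lower at 72 h than at 24 h in WT members (median -2.57), and 3 of 10 in KO (median -0.45). The list's sum also fell in the other gated barcodes, from 5629 to 3437 CPM in WT and from 4774 to 3917 CPM in KO. Klf2 stood at 512, 573, 915, 591, 147 and 251 CPM, lowest in both 72 h libraries. Of the capillary and lipid genes, 6 of 11 were at least 2-fold lower in WT and 3 of 11 in KO, with Cd36, Lpl and Aqp1 in both. Fabp5, another fatty acid binding protein, was at least 2-fold higher in both, at 1410.4 and 2725 CPM against 319 and 519.7 CPM at 24 h, but sham members were also high, at 1414 and 1003 CPM. Slc2a1 was lower at 72 h in both genotypes, at 46.8 and 66.0 CPM, while Pgk1 was not, at 608 and 521 CPM. Dll4, the Notch ligand of tip cells, was at 193 CPM at 24 h and 78.9 CPM at 72 h in WT, a log2 ratio of -1.29 (-1.78 to -0.80), and at 181 and 145 CPM in KO, a log2 ratio of -0.32 (-1.08 to 0.39). The plot of genes by condition shows the 24 h peak of Slc2a1 and Plaur beside the 72 h highs of Plvap, Col18a1, Stmn1 and Prnd.

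**Figure D5:**
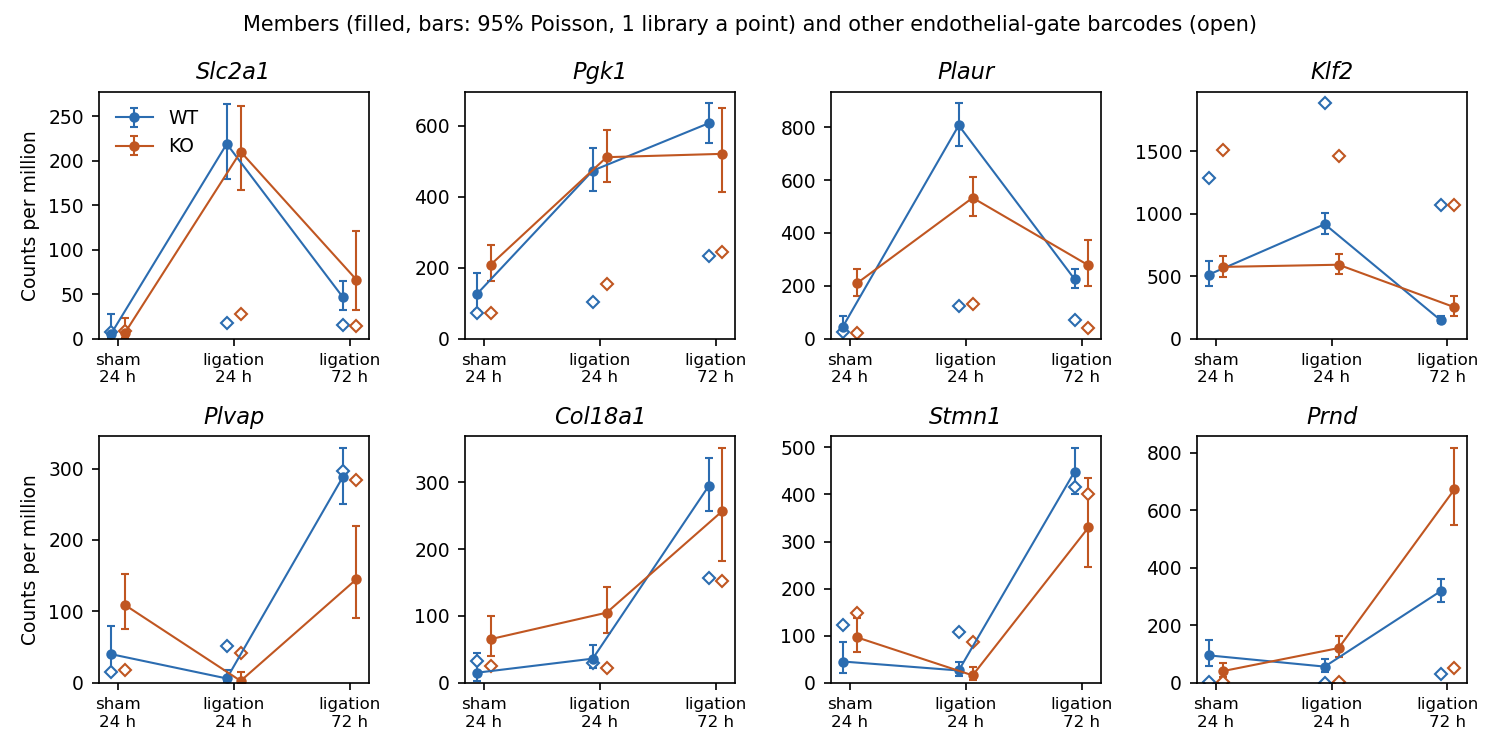
CPM (y axes, from 0) of 8 genes in members without mural-marker barcodes (filled, 95% Poisson intervals, 1 library a point) and in other endothelial-gate barcodes (open diamonds) by condition (x axes; blue WT, orange KO). Slc2a1 is highest at 24 h after ligation, Pgk1 is higher in all 4 ligation libraries than in sham, and Col18a1, Stmn1 and Prnd are highest at 72 h.

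Between KO and WT members, Edn1 and Plaur were higher in KO in sham, several immediate early genes were lower in KO at 24 h after ligation, and Esm1 was lower in KO at 72 h. In sham 47 of 1681 genes tested (2.8%) were at least 2-fold higher in KO and 30 (1.78%) lower. At 24 h after ligation 69 of 2924 (2.36%) were higher and 112 (3.83%) lower, and at 72 h 51 of 2726 (1.87%) were higher and 134 (4.92%) lower. With all members these shares were 1.6% and 1.32% in sham, 2.08% and 3.52% at 24 h, and 1.89% and 4.74% at 72 h. Numbers of members differed between these pairs, and the counts of genes were not tested against each other. In sham, the named higher genes were Ccn1, Edn1, Plaur, Tubb6 and Ddx21. Edn1 was at 237 CPM in KO and 35.1 CPM in WT, a log2 ratio of 2.75 (1.64 to 4.12), on 8 and 3 barcodes. Plaur was at 209 and 45.1 CPM, a log2 ratio of 2.21 (1.20 to 3.40), on 20 and 9 barcodes. The lower genes were Ifi27l2a, Cxcl9, Fmo1, Nrip1 and Isg15, of which 3 respond to interferon. Isg15 was at 62.3 and 150.4 CPM, a log2 ratio of -1.27 (-2.17 to -0.41), and 1 member gave 69.2% of Ifi27l2a UMIs in WT.

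At 24 h after ligation, 7 of 16 immediate early genes were at least 2-fold lower in KO members and none higher (median log2 -0.74). Hspa1a was at 23.6 CPM in KO and 1471 CPM in WT, on 7 and 21 barcodes. It was also lower in the other gated barcodes, by a log2 ratio of -3.76. Klf4 was at 49.9 and 203 CPM, a log2 ratio of -2.02 (-2.81 to -1.31), with 39.6% of the WT UMIs from 1 barcode. Angpt2 was higher in KO, at 218 against 78.3 CPM, a log2 ratio of 1.48 (0.91 to 2.06), on 26 and 20 barcodes. At 72 h its order was the other way, 52.8 against 134 CPM, a log2 ratio of -1.34 (-2.59 to -0.31), on 8 KO UMIs. The named higher genes Csf3r and Cxcr2 are neutrophil receptors, which moved with the neutrophil sums above, and Lrg1 is one that neutrophils also express. At 72 h, 5 of 16 measured proliferation genes were at least 2-fold lower in KO and none higher (median -0.25), and 1 WT member gave 37.9% of the list's UMIs there and 1 KO member 46.6%. The list summed to 1913 CPM in KO and 2660.2 in WT, or 1169 and 1814 CPM without each library's highest member. Thinned to 1000 UMIs, 8 of 26 KO members (30.8%) and 15 of 47 WT members (31.9%) had 2 or more of its UMIs. Esm1 was at 19.8 CPM in KO and 119 CPM in WT, a log2 ratio of -2.59 (-4.89 to -0.995), on 3 KO UMIs. Prnd was at 673 and 318 CPM, a log2 ratio of 1.08 (0.73 to 1.42), on 12 and 25 barcodes, with 40.2% of the KO UMIs from 1. The named higher genes were Mt1, Junb, Nts, Bloc1s1 and Mpp1, and the lower ones Prss23, Hist1h1b, Naa50, Hist1h4d and Dut. Junb, an immediate early gene, was at 581 and 165 CPM, a log2 ratio of 1.82 (1.41 to 2.23), on 18 and 31 barcodes. The serine protease gene Prss23 had 8, 9, 0, 9, 93 and 1 UMIs. Macrophage markers moved with genotype at 72 h, summing to 1201 CPM in KO members and 129.8 in WT. In the other gated barcodes these markers summed to 2625 CPM in KO and 129.5 in WT. In 13 of 26 KO members they outnumbered the endothelial genes' UMIs, and in 1 of 47 WT members. All 8 macrophage genes were detected there, and their part in these differences was not tested.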

How the data were processed

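Single-cell 3-prime RNA libraries of 6 groups were analysed. The values are deposited UMI counts, whole numbers per gene and barcode for 32285 genes, not normalized. The authors made them with Cell Ranger 6.0.0 on mm10, per the submitters' processing notes. The gene annotation and any later filter are not given in the sources used here, and the gene and barcode files served as indexes only.

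Barcodes were selected by the rule given in the report with Python 3.11.15, numpy 2.4.6, scipy 1.17.1, pandas 2.3.3 and matplotlib 3.10.9. UMIs of each population were summed per library and divided by all its UMIs, scaled to CPM. A gene counted as past 2-fold with at least 50 UMIs over the populations compared. A count of 0 was read as 3 UMIs for a bound. Intervals are exact 95% Clopper-Pearson intervals for shares and exact conditional Poisson intervals for ratios, and cover counting error only. Ratios of shares carry approximate 95% intervals from the normal approximation on the log scale. Every group was 1 library, so nothing was tested and no replicate pairing exists.

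Named genes were those of 30 lists, and by rule the 15 highest and 10 lowest ratios to the other gated barcodes with a mean of at least 50 CPM and 1 direction in all 6 libraries. In each of 7 pairs of libraries the rule took the 5 highest and 5 lowest with at least 100 CPM, and in both cases the level had to reach 0.25 of that outside the gate. The members and lists were chosen with earlier results of these data known. Some genes that the rule named are not reported here. Genes beyond the rule were chosen after their values were seen.

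No doublets were removed. Removing the highest Scrublet scores (scanpy 1.11.5) at 0.8% per 1000 barcodes, which took 17 members, was an alternative, as were other UMI and mitochondrial limits, an Apln and Pgf minimum of 3, a gate minimum of 5, thinning, other weights and scaling, each library left out, and no mural-marker barcodes. The ratio procedure was tested on simulated data with known changes. Start-site sequences are from RefSeq on GRCm38.p6, gene positions from GENCODE on GRCm38.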

Additional observations from a re-analysis of the deposited data

How the results depend on the processing

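With the mural-marker barcodes left out, the KO share ratio of ligation at 24 h to sham was 8.56 in place of 5.70. Thinned to 1000 UMIs, the WT ratio of 72 h to 24 h was 1.01 (0.689 to 1.47) in place of 1.39. The ratio of KO to WT at 72 h was then 0.758 (0.472 to 1.22) in place of 0.452. The thinned ratios count barcodes with at least 1 Apln or Pgf UMI and the others at least 2, so both cut and depth differ. With at least 2 after thinning, the 72 h shares were 5.71% in WT and 2.73% in KO. The intervals of the ratios cover counting error within single libraries and are no test between conditions or genotypes, thinned or not. The other 5 thinned share ratios moved by less. For all members against the other gated barcodes, 1765 genes were past 2-fold, and 1459 to 1840 with each library left out in turn, lowest without KO sham. With no UMI minimum it was 7217. With a minimum of 20 UMIs in place of 50, the counts past 2-fold were 1266 in place of 526 for WT and 1023 in place of 372 for KO ligation at 24 h against sham, 1741 in place of 816 for WT and 813 in place of 220 for KO at 72 h against 24 h, and for KO against WT 483 in place of 73 in sham, 565 in place of 183 at 24 h and 844 in place of 186 at 72 h. For KO ligation at 24 h against sham it was 217 with at least 3 Apln and Pgf UMIs and 185 without mural-marker barcodes. Averaged over barcodes, it was 358 for KO at 72 h against 24 h and 376 for KO against WT at 72 h. Between members and other gated barcodes, the log2 ratios of the smooth muscle genes Myh11, Acta2 and Myl9 turned to -2.41, -0.31 and -0.27 without mural-marker barcodes. Rgs5 turned to -0.36 for KO against WT at 72 h when averaged over barcodes. Apart from the alternatives' own construction, the cause was not tested. Pair values with an Apln and Pgf minimum of 3 were not run for KO at 72 h, which then held 19 members. No paired analysis was possible because each group was 1 library and no replicate numbers pair them. Depth limits genes under 50 UMIs, above all in the 26 KO members at 72 h.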

Other observations

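Other gene groups stood nearer to the other gated barcodes, again for the 307 members without mural-marker barcodes. Of 11 measured Notch pathway genes, 0 were at least 2-fold higher and 1 lower, with a median log2 ratio of -0.04. Of 8 venous genes 1 was higher and 2 lower (median -0.48), and of 19 interferon-response genes 0 were higher and 2 lower (median -0.42). Isg15, an interferon-induced ubiquitin-like protein, stood at 150.4, 62.3, 279, 205, 238 and 132 CPM in members and 159, 163, 164, 177, 305 and 232 CPM in the other gated barcodes, higher in members of both 24 h ligation libraries and lower in the other 4. Of 7 red cell and platelet genes 6 were at least 2-fold lower in members (median -2.52). Few of the other gated barcodes held 5 or more of these UMIs in sham, 46 of 2146 in WT and 62 of 2992 in KO. At 24 h after ligation in KO it was 11 of 583. Among members it was 0 of 33, 0 of 39 and 1 of 73, too few to compare. In WT ligation at 24 h the list's sum was higher in members, at 337 against 160 CPM. Hba-a1 stood at 0, 6.23, 20.1, 0, 2.68 and 6.60 CPM in members against 735, 1369, 20.5, 418, 4.98 and 20.6 CPM.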
